A study of Mus musculus with 2 samples.

Results

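Efferocytosis is the uptake of dead cells by phagocytes, and scavenger receptors are surface proteins by which macrophages take up lipoproteins, haemoglobin, glycans and dying cells. The genes described here were chosen by name and comprised 10 of the 32524 genes in the count tables: the ligand Gas6, the apoptotic cell receptors Mertk, Axl and Timd4, the scavenger receptors Stab1, Cd36, Msr1 and Cd163, the mannose receptor Mrc1 and the hyaluronan receptor Lyve1. All 10 were found by symbol. The cells were synovial CD45+CD11b+ cells sorted from hind paws of wild-type C57BL/6 mice, 7 to 10 weeks old at the start, given either β-glucan (1 mg) or PBS, in which arthritis was started 7 days later and cells were taken at day 17 of it. Both groups were arthritic, and a group without arthritis is not among the samples used here. The sample labels describe arthritis induced by a cocktail of monoclonal antibodies with lipopolysaccharide, whereas the design text of the series and the methods give K/BxN serum transfer. The source of the β-glucan used in this experiment was not given in the sources used here. Each group was 1 droplet library of 4 mice pooled, with no label that ties a cell to its mouse, so the groups were compared without replicates and no test or p-value was possible.

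Apoptotic cells expose phosphatidylserine on their surface. TIM-4, encoded by Timd4, and stabilin-1, encoded by Stab1, bind it directly, whereas the receptor tyrosine kinases MERTK and AXL bind it through the bridging protein GAS6. CD36 and the class A scavenger receptor encoded by Msr1 take up modified lipoproteins and also bind dying cells, CD163 takes up complexes of haemoglobin with haptoglobin, and the mannose receptor CD206, encoded by Mrc1, takes up glycoproteins with terminal mannose. In synovium, MERTK, CD206, TIM-4, CD163 and LYVE-1 are widely used to tell resident macrophages from recently recruited cells.

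For 8 of the 10 genes RefSeq gave a window from 250 bases before to 50 bases after a transcript start (assembly GRCm38.p6), and each window matched GRCm39 at 1 position without a mismatch. Msr1 and Lyve1 had no entry. Each window was searched on both strands for CATGTG (the M-box, an E-box form bound by MITF and related factors), CACGTG (E-box), TGCTGA (a MAF half-site), TGANTCA (AP-1) and GGAA (the core of PU.1 and other ETS sites), and no match to CATGTG overlapped one to TGCTGA. The first 4 of these occurred in 14.2%, 7.15%, 19.5% and 7.81% of 32851 promoter windows of this length, and GGAA in 96.0%, so a GGAA match sets no window apart. CATGTG was found in 3 of the 8 windows (Mrc1, Stab1 and Timd4), TGCTGA in 3 (Cd36, Stab1 and Timd4), and CACGTG and TGANTCA in none. The 5 windows shown are those of the 2 receptor kinases whose levels followed different orders across clusters and of the 3 genes with a CATGTG, written 5′ to 3′ on the gene's strand, with matches to CATGTG or TGCTGA on either strand in capitals. A match is a string of letters and not a binding site. In GRCm39 they lay at chr2:128540585-128540884 (plus strand), chr7:25488109-25488408 (minus), chr2:14233975-14234274 (plus, with 2 CATGTG), chr14:30890549-30890848 (minus) and chr11:46701376-46701675 (plus, with 1 CATGTG and 2 TGCTGA).
Mertk: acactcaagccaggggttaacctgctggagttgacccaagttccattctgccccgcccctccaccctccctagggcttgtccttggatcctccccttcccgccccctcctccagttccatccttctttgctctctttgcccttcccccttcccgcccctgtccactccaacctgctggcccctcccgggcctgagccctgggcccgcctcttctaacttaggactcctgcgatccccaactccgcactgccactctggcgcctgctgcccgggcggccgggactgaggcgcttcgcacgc
Axl: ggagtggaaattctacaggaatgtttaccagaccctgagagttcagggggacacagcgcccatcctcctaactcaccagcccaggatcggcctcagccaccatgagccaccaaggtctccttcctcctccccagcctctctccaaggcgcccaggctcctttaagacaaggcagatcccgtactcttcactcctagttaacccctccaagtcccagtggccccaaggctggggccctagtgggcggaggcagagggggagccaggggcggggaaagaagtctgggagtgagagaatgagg
Mrc1: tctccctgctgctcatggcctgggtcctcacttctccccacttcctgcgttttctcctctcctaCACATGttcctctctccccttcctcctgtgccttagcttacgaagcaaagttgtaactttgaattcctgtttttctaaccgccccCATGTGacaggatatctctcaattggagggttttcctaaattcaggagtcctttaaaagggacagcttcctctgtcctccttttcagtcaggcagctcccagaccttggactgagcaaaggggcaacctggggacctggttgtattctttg
Stab1: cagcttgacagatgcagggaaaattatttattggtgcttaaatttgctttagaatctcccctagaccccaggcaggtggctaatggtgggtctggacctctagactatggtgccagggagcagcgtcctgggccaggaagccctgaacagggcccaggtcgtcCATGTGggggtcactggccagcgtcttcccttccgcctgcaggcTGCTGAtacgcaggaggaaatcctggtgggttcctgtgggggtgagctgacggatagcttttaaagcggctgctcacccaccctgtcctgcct
Timd4: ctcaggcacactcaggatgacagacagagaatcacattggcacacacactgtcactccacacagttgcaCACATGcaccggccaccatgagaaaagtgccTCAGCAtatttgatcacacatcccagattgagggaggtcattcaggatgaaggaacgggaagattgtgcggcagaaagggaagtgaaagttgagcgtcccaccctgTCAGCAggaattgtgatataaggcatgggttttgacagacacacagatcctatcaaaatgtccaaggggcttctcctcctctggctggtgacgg

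After the filter on cells (at least 500 genes, at most 10% mitochondrial UMIs) 5696 cells of the β-glucan library and 4553 of the PBS library were kept, with 7 barcodes shared by the libraries before it. Rebuilt clustering gave 19 clusters, formed without the 10 genes in the principal components. Of these, 10 made up the main myeloid compartment (4616 cells and 65423235 UMIs with β-glucan, 3677 cells and 60585856 UMIs with PBS). Levels are UMIs of a gene per 1000000 UMIs of the same cells (CPM), and intervals are exact 95% intervals that cover counting error only. All 11 genes of the macrophage marker list were detected in at least 25% of the cells of clusters 0, 1, 3, 5, 6 and 7 in both libraries. Clusters 1 and 2 were called macrophage-like from the whole list, of which 11 and 10 genes were found, although 1 of their 10 leading genes marks another class and none is on the macrophage list. The mean scaled level of the macrophage list was 1.24 in cluster 1, with the monocyte list next at -0.11. In cluster 2 it was 0.31, with the osteoclast list next at 0.04, so that name is the weaker. The summed macrophage list in cluster 2 was at 8148 and 7891 CPM (β-glucan and PBS). Cells outside the compartment also carried macrophage transcripts, with the summed macrophage list at 1402 and 1299 CPM in the B cell-like cluster 8 and at 3328 and 3331 CPM in the T cell-like cluster 10 (β-glucan and PBS), against 15311 and 14557 CPM in the compartment. In cluster 8, Mertk was at 18.9 and 9.18 CPM and Mrc1 at 134 and 91.8 CPM. The second B cell-like cluster, number 15, led by Cacna1e and Bank1, had the summed macrophage list at 9773 and 11466 CPM, Mertk at 160.1 and 128 CPM and Mrc1 at 1106 and 811 CPM. In T cell-like cells Mertk was at 76.6 and 42.1 CPM and Mrc1 at 414 and 204 CPM. In these clusters Mertk and Mrc1 were higher in the β-glucan library. In the neutrophil-like cluster 9 the summed macrophage list was at 12319 and 6208 CPM. Mertk there was at 223 and 116 CPM and Mrc1 at 1159 and 695 CPM. Among clusters outside the compartment, Mertk was lower with β-glucan only in the unnamed cluster 16 (152 and 168 CPM). Among them Mrc1 was lower only in the stromal-like cluster 12 (52.6 and 68.0 CPM). Axl was at 10.2 and 25.2 CPM in the T cell-like cluster and at 17.03 and 3.94 CPM in cluster 8, in opposite directions. The part of this background in the values below was not tested.

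Most of the genes were highest in 1 cluster, number 0, a macrophage-like cluster led by Ednrb, Enpep and C4b (827 cells with β-glucan, 564 with PBS). Gas6, Timd4, Stab1, Cd36, Cd163 and Mrc1 had their highest cluster level there in both libraries. For Timd4 the interval overlapped that of the small cluster 17 in both libraries. Cluster 0 held 14.5% and 12.4% of the cells kept but 53.6% and 47.0% of all Cd163 UMIs, 39.2% and 38.1% of Timd4 UMIs and 35.0% and 34.9% of Mrc1 UMIs. Mertk was highest in cluster 5 (macrophage-like, led by Gpnmb and Apoe), Lyve1 in cluster 1 (macrophage-like, led by Vsig4 and S100b), Msr1 in cluster 6 (macrophage-like, led by Olr1 and Spp1; its interval overlapped that of cluster 18 with β-glucan and of cluster 3 with PBS) and Axl outside the compartment, in the stromal-like cluster 12. These highest clusters were the same in both libraries.

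**Figure D1:**
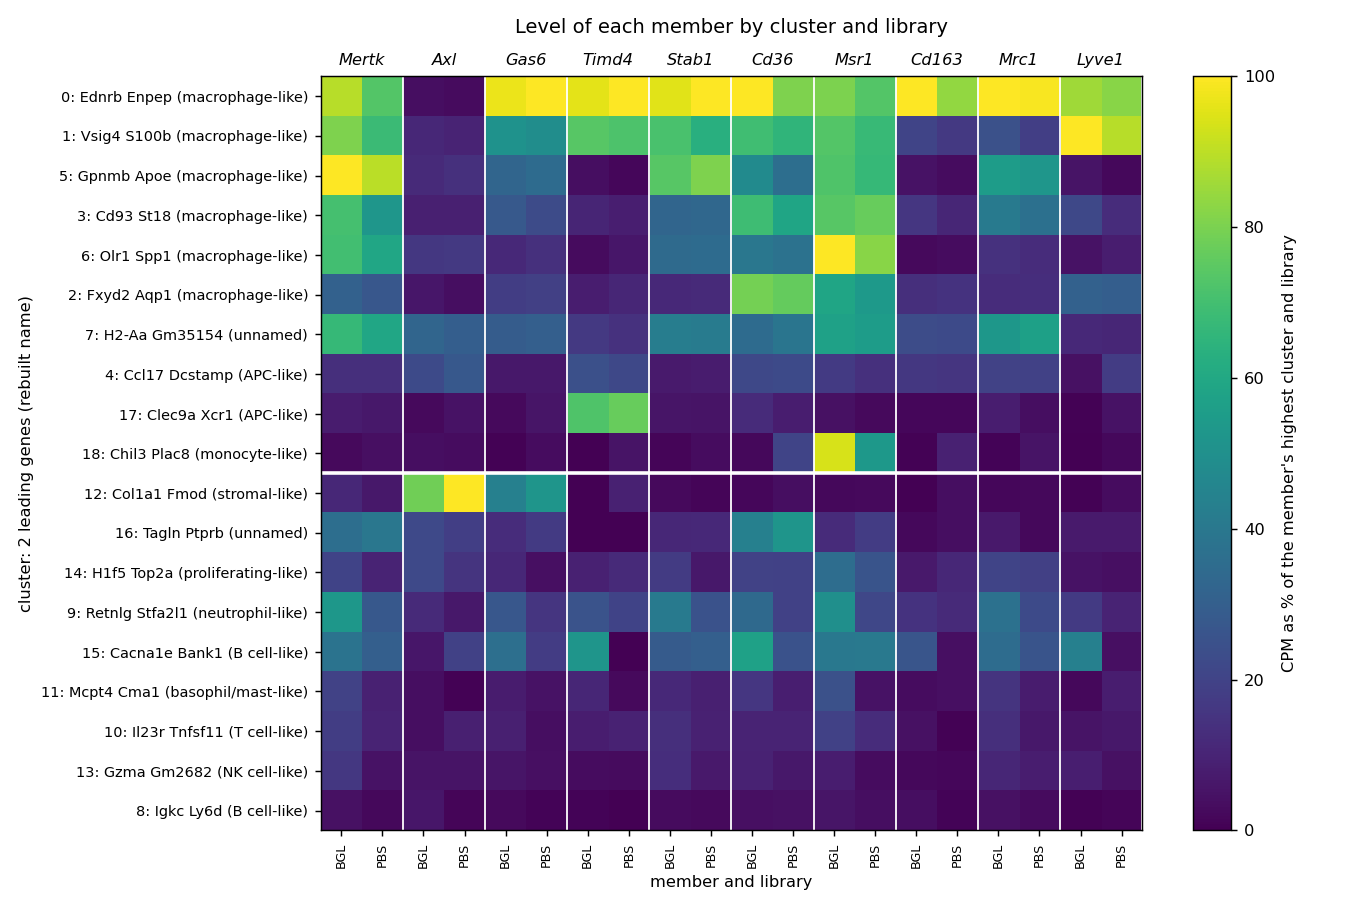
Level of each gene in the 19 clusters (rows, by number, 2 leading genes and rebuilt name) and both libraries (columns), as the percentage of that gene's highest CPM in any cluster and library. Clusters above the white line form the compartment. Cluster 0 is the highest row for 6 genes in both libraries. With PBS it is below the β-glucan column for Cd36 (1251 against 1549 CPM) and Cd163 (1023 against 1218 CPM). Axl peaks in the stromal-like cluster 12 and Msr1 is also high in the small monocyte-like cluster 18.

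Gas6 encodes the bridging ligand of MERTK and AXL. Its level in cluster 0 was 872 CPM in the β-glucan library against 897 CPM in the PBS library, and 98.8% and 99.5% of the cells had a Gas6 UMI. Cluster 1 followed in the compartment at 456 and 441 CPM, and clusters 5, 7 and 3 lay between 206 and 313 CPM. Gas6 was lowest among the large clusters in cluster 4, an APC-like cluster led by Ccl17, Dcstamp and Cd209a (349 and 590 cells), at 58.8 and 58.0 CPM. Outside the compartment the stromal-like cells had 389.9 and 466 CPM, with a UMI in 85.8% and 91.8% of cells, so that Gas6 was not a product of macrophages alone in this sort. In the B cell-like clusters 8 and 15 it was at 22.5 and 9.84 CPM and at 326 and 159.5 CPM.

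Mertk encodes the receptor kinase through which macrophages engulf apoptotic cells. It was broad across the macrophage-like clusters: 421 and 378 CPM in cluster 5, 376 and 308 in cluster 0, and 340 and 287 in cluster 1. In cells thinned to 5000 UMIs, 81.4% and 74.8% of cluster 5 cells had a Mertk UMI, against 3.53% and 2.37% of cells of the B cell-like cluster 8 and 13.3% and 8.04% of T cell-like cells. The macrophage-like cluster 2, led by Fxyd2 and Aqp1, was lower at 130.4 and 115 CPM, and the APC-like cluster 4 was lowest of the large clusters at 56.8 and 56.1 CPM. With PBS the intervals of clusters 0 and 1 overlapped, as did those of clusters 7 and 6. With β-glucan the same held for clusters 3 and 6 and for clusters 6 and 7.

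Axl encodes the second GAS6 receptor, which is known as inducible by inflammatory signals. It followed another order than Mertk. Its highest level in the compartment was in cluster 7, led by the MHC class II genes H2-Aa, H2-Eb1 and Cd74 and by Ccr2, which carried macrophage markers but was left unnamed, at 94.3 and 86.7 CPM. The APC-like cluster 4 came next at 65.4 and 79.7 CPM, and with PBS its interval overlapped that of cluster 7. In cluster 0, where most of the other genes peaked, Axl was at 10.3 and 8.83 CPM, against 10.2 and 25.2 CPM in the T cell-like cluster. In the stromal-like cluster it was at 226 and 289 CPM, with a UMI in 89.6% and 94.5% of cells.

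**Figure D2:**
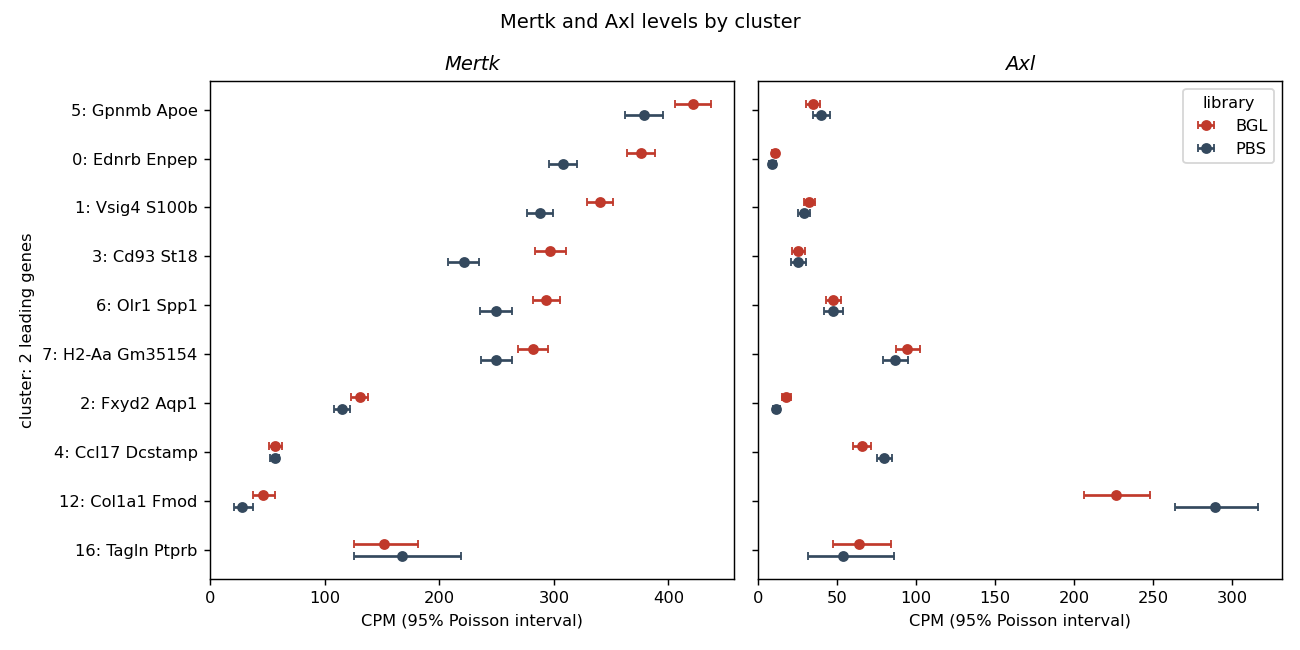
Mertk (left) and Axl (right) in 8 large clusters of the compartment and in the stromal-like cluster 12 and the unnamed cluster 16, in CPM with 95% Poisson intervals, red for the β-glucan library (BGL) and dark for PBS. Among the 8 large clusters Mertk is lowest in cluster 4, at 56.8 and 56.1 CPM, and Axl in cluster 0, at 10.3 and 8.83 CPM.

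Over the 16 points given by the 8 large clusters and 2 libraries, the correlation of log2(CPM + 1) was 0.94 between Mertk and Stab1, 0.88 between Mertk and Msr1 and -0.23 between Mertk and Axl. Axl and Cd36 had the most negative value of all pairs, -0.87. Timd4 correlated with Cd163 at 0.86 and with Lyve1 at 0.84, and Mertk with Timd4 at -0.01. These are descriptions over points that share 2 libraries and their free RNA. In thinned compartment cells, Mertk and Axl were both detected in 8.28% (95% interval 7.47 to 9.15) of cells with β-glucan and 6.93% (6.09 to 7.83) with PBS, against 8.0% and 6.81% from the product of their shares within each cluster. Both products lay inside the intervals. Timd4 and Lyve1 were both detected in 7.29% and 7.10% of cells, above the products of 6.13% and 5.54%.

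Timd4 encodes TIM-4, a phosphatidylserine receptor of long-lived tissue macrophages. It was at 62.5 and 65.2 CPM in cluster 0 and at 48.3 and 46.9 CPM in cluster 1, with a UMI in 33.0% and 38.1% of cells of cluster 0. The other large clusters had 15.98 CPM or less in both libraries. A small APC-like cluster outside the macrophages, number 17, led by Clec9a and Xcr1, markers of conventional type 1 dendritic cells, had 47.2 and 49.9 CPM (33 and 24 cells), with intervals that overlapped those of cluster 1 in both libraries. In both libraries the interval of cluster 17 also overlapped that of cluster 0. In the B cell-like cluster 8 there was 1 Timd4 UMI with β-glucan and 0 with PBS, where 3 UMIs would be 1.97 CPM. In the B cell-like cluster 15 there were 28 with β-glucan (33.95 CPM) and 0 with PBS.

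Stab1 encodes stabilin-1, a receptor for phosphatidylserine and for modified lipoproteins. It was at 756 and 791 CPM in cluster 0, 587 and 637 in cluster 5 and 566 and 499 in cluster 1. Clusters 2 and 4 were lowest among the large clusters, at 91.2 and 93.3 CPM and at 57.8 and 59.7 CPM. Cd36 encodes a fatty acid and lipoprotein receptor. It reached 1549 and 1251 CPM in cluster 0 and stayed at 1223 and 1183 CPM in the Fxyd2 and Aqp1 cluster 2, where Stab1 and Mertk were low. An unnamed cluster led by Tagln, Ptprb and Fabp4, number 16, had Cd36 at 678 and 809 CPM (55 and 29 cells).

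Msr1 encodes the class A scavenger receptor. It varied least among the macrophage-like clusters, by the ratio of highest to lowest level, between 197 and 335 CPM in the β-glucan library and between 180.5 and 275 CPM in the PBS library, with the highest value in cluster 6, which is led by Olr1, which encodes another receptor for modified lipoproteins. The monocyte-like cluster 18, led by Chil3, Plac8 and Ly6c2, had Msr1 at 315 and 178 CPM, while Mertk there was at 10.7 and 16.8 CPM, but it held only 20 and 23 cells. Cd163 was concentrated: 1218 and 1023 CPM in cluster 0, 283 and 275 in cluster 7 and 248 and 204 in cluster 1. In cluster 5, where Mertk was highest, Cd163 was at 61.4 and 41.3 CPM, against 56.1 and 9.52 CPM in the T cell-like cluster.

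Mrc1 encodes the mannose receptor. It was detected in 100% and 99.8% of the cells of cluster 0, at 3115 and 3084 CPM, and followed at 1720 and 1642 CPM in cluster 5 and 1643 and 1774 CPM in cluster 7. It was at 389.8 and 412 CPM in cluster 2. Lyve1 encodes a hyaluronan receptor first known from lymphatic vessels and also used as a marker of perivascular resident macrophages. It was at 1885 and 1679 CPM in cluster 1, 1616 and 1549 in cluster 0 and 588 and 564 in cluster 2, with a UMI in 45.7% and 45.2% of cluster 2 cells. Cells with at least 10 Lyve1 UMIs were 58.3% and 62.6% of cluster 0 and 67.7% and 66.2% of cluster 1. They were 20.8% and 22.4% of cluster 2 but held 90.2% and 93.0% of its Lyve1 UMIs.

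The genes most like each in pattern were taken over 28 points (14 clusters, each of 50 or more cells per library), among 10665 genes. Mertk was most like Gna12, Dab2 and Mfsd1 (r of 0.97, 0.96 and 0.96), Stab1 like Cbr2, Tfec and Adap2 (0.96, 0.95 and 0.95), Cd36 like Snx3, Stard8 and Csf1r (0.97, 0.96 and 0.96) and Msr1 like C1qb, C1qa and Abcc3 (0.96, 0.96 and 0.96). Mrc1 was most like Ap1b1, Clec4a1 and B4galt6 (0.95, 0.94 and 0.94) and Gas6 like B3galnt1 and Fam110b (0.93 and 0.93). Cd163 was nearest to Hrh1, Tslp and Ccl24 (0.90, 0.88 and 0.88), Timd4 to Tslp, Lyve1 and Gm26714 (0.86, 0.85 and 0.84) and Lyve1 to Gm26714, Fcna and Timd4 (0.90, 0.89 and 0.85). Axl had the weakest likeness, with Trps1, Htra3 and Arsi (0.83, 0.82 and 0.81).

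The comparison of β-glucan with PBS asks whether these genes differed in the compartment of pre-treated mice at day 17. In the compartment 9 of the 10 genes were higher with β-glucan and 1, Axl, was lower, but most differences were small and the interval of Timd4 spanned 0. Of the 9811 genes whose mean reached 5 CPM, 5655 were higher. Mertk was at 273 CPM with β-glucan (269 to 277) and 204 CPM with PBS (200.2 to 207), a log2 ratio of 0.42 (0.39 to 0.45). Msr1 was at 224 and 180.4 CPM, a log2 ratio of 0.31 (0.28 to 0.35). These 2 genes were past 1.2-fold and higher, and none was past 1.2-fold and lower; of all 9811 genes, 6.84% were past 1.2-fold and higher and 4.47% past it and lower. The median log2 ratio was 0.18 over the 10 genes and 0.03 over all 9811. Mertk is on a protein kinase list that the study drew from these libraries, and Msr1, Stab1, Cd36 and Colec12 are on its scavenger receptor list, so that their ratios here are not independent of those lists.

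Cd163 was at 328 and 277 CPM (log2 ratio 0.25, 0.22 to 0.27), Cd36 at 927 and 782 (0.24, 0.23 to 0.26) and Stab1 at 379 and 331 (0.20, 0.17 to 0.22), all under 1.2-fold. Mrc1 was at 1242 and 1116 CPM (0.15, 0.14 to 0.17), Gas6 at 329 and 297 (0.15, 0.12 to 0.18) and Lyve1 at 724 and 656 (0.14, 0.12 to 0.16). Timd4 was at 22.6 and 21.7 CPM (0.06, -0.05 to 0.17), with no difference detectable at this depth, and Axl at 38.0 and 42.8 CPM (-0.17, -0.25 to -0.09). Thinned compartment cells of the β-glucan library had a Mertk UMI in 61.2% of cases (59.7 to 62.7). For the PBS library this share was 51.2% (49.5 to 52.9), and 377 and 284 shallower cells were left out. Unthinned, these shares were 76.6% and 69.2%, at median depths of 13033 and 15476 UMIs.

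Part of these ratios moved with the mix of clusters. Cluster 4, low in Mertk, Msr1, Stab1 and Gas6, held 349 cells with β-glucan and 590 with PBS. Without it the log2 ratio was 0.27 for Mertk, 0.15 for Msr1, 0.03 for Stab1 and -0.02 for Gas6. Axl changed sign, from -0.17 with all clusters to 0.13 without cluster 4, and was at -0.02 with the same mix of clusters. With the same mix of clusters in both libraries, Mertk was at 0.23 and Msr1 at 0.13, and none of the 10 was past 1.2-fold. The libraries also differed in long genes: a median of 19.5% of a compartment cell's UMIs came from genes of at least 100 kb with β-glucan and 17.6% with PBS. Median log2 ratios over all genes were -0.06 for spans under 10 kb, 0.00 for 10 to 30 kb, 0.06 for 30 to 100 kb and 0.14 for 100 kb or more. Mertk spans 104.4 kb, Cd36 108 kb and Mrc1 103 kb, all in the longest group, while Msr1 spans 61.0 kb and Lyve1, the shortest, 13.9 kb. In cells matched within each cluster on their share of long-gene UMIs, and so with equal cell numbers per cluster, Mertk was at 0.10, Msr1 at 0.07 and Mrc1 at -0.07. Whether reads in introns were counted is not given in the sources used here.

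**Figure D3:**
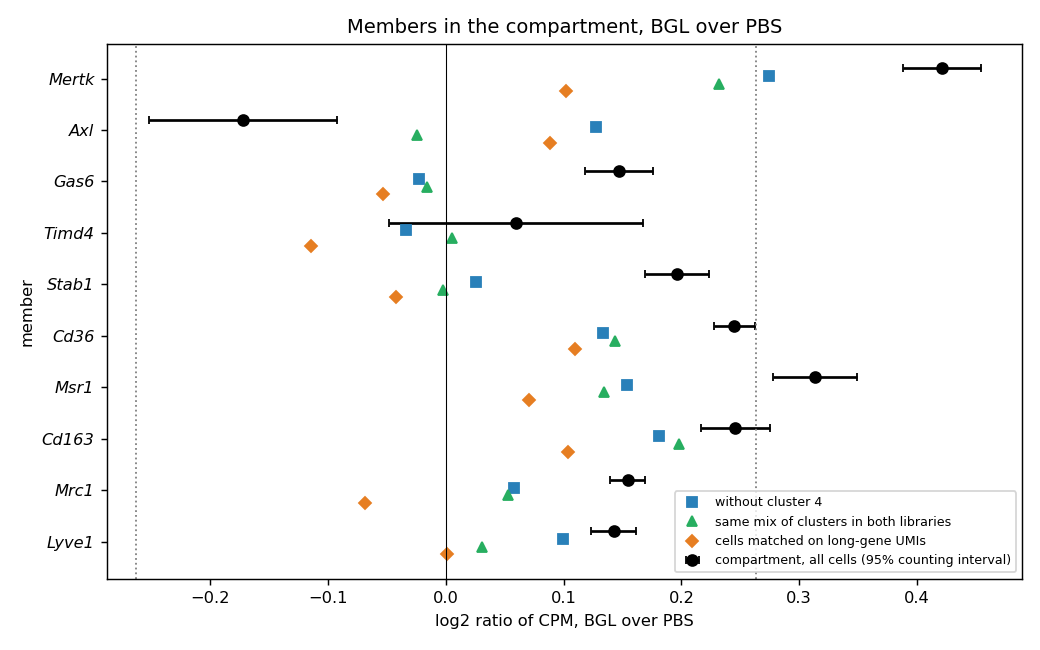
Log2 ratio of CPM, β-glucan (BGL) over PBS, for each gene in the compartment with its 95% counting interval (black), and without cluster 4 (blue), with the same mix of clusters in both libraries (green) and after matching cells by their long-gene share (orange). Dotted lines mark 1.2-fold. Only the black points of Mertk (0.42) and Msr1 (0.31) and the blue point of Mertk (0.27) lie beyond 1.2-fold.

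Within clusters, Mertk was higher with β-glucan in each of the 8 large clusters, from 0.02 in cluster 4 to 0.43 in cluster 3, with an interval above 0 in 7. The share of all genes with such counts of clusters is not given here, so the counts do not set a gene apart. Outside the compartment the Mertk ratio was 0.86 in the T cell-like, 0.95 in the neutrophil-like and -0.14 in the unnamed cluster 16. The value in cluster 4 depended on 140 PBS cells described below, without which Mertk was at 56.8 against 35.9 CPM there. These levels lay below the 76.6 and 42.1 CPM of the T cell-like cluster. They lay above the 18.9 and 9.18 CPM of the B cell-like cluster 8. The part of background in the ratio of cluster 4 was not tested. With all cells, the 3 largest Mertk ratios among the 8 large clusters were in cluster 3 (297 against 221 CPM), cluster 0 (376 against 308) and cluster 1 (340 against 287). Msr1 was higher in 7 of 8 clusters, with an interval above 0 in 6 and a largest ratio of 0.29 in clusters 4 and 6. Cd36 was higher in 6, most in cluster 5 (744 against 562 CPM, 0.40) and cluster 0 (0.31), and lower in cluster 7 (-0.15, -0.22 to -0.08). Mrc1 was nearly level in cluster 0 (0.01) and higher in cluster 1 (772 against 582 CPM, 0.41). It was lower in cluster 7 (1643 against 1774 CPM, -0.11, -0.15 to -0.07) and cluster 2 (-0.08, -0.15 to -0.01).

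Stab1 and Gas6, higher in the compartment as a whole, were lower in 6 and 5 of the 8 clusters, with an interval below 0 in 2 and 1 of them and above 0 in 1 cluster each. Stab1 ranged from -0.12 in cluster 5 to 0.18 in cluster 1, and Gas6 from -0.29 in cluster 6 to 0.27 in cluster 3. Axl was higher in 4 and lower in 4, from -0.29 in cluster 4 to 0.66 in cluster 2 (17.6 against 11.1 CPM). Cd163 was higher in 6, including clusters 0 (0.25) and 1 (0.28). It was lower in clusters 2 (-0.12, -0.22 to -0.02) and 6 (-0.33, -0.60 to -0.06). Timd4 had no cluster with an interval that excluded 0. In the Fxyd2 and Aqp1 cluster 2, Lyve1 (0.06), Stab1 (-0.03), Cd36 (0.05), Gas6 (-0.03) and Mrc1 (-0.08) lay within 0.1 of 0. The intervals of Lyve1 and Cd36 nevertheless lay above 0. Axl (0.66), Timd4 (-0.38), Mertk (0.18), Msr1 (0.13) and Cd163 (-0.12) were further from 0 there.

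**Figure D4:**
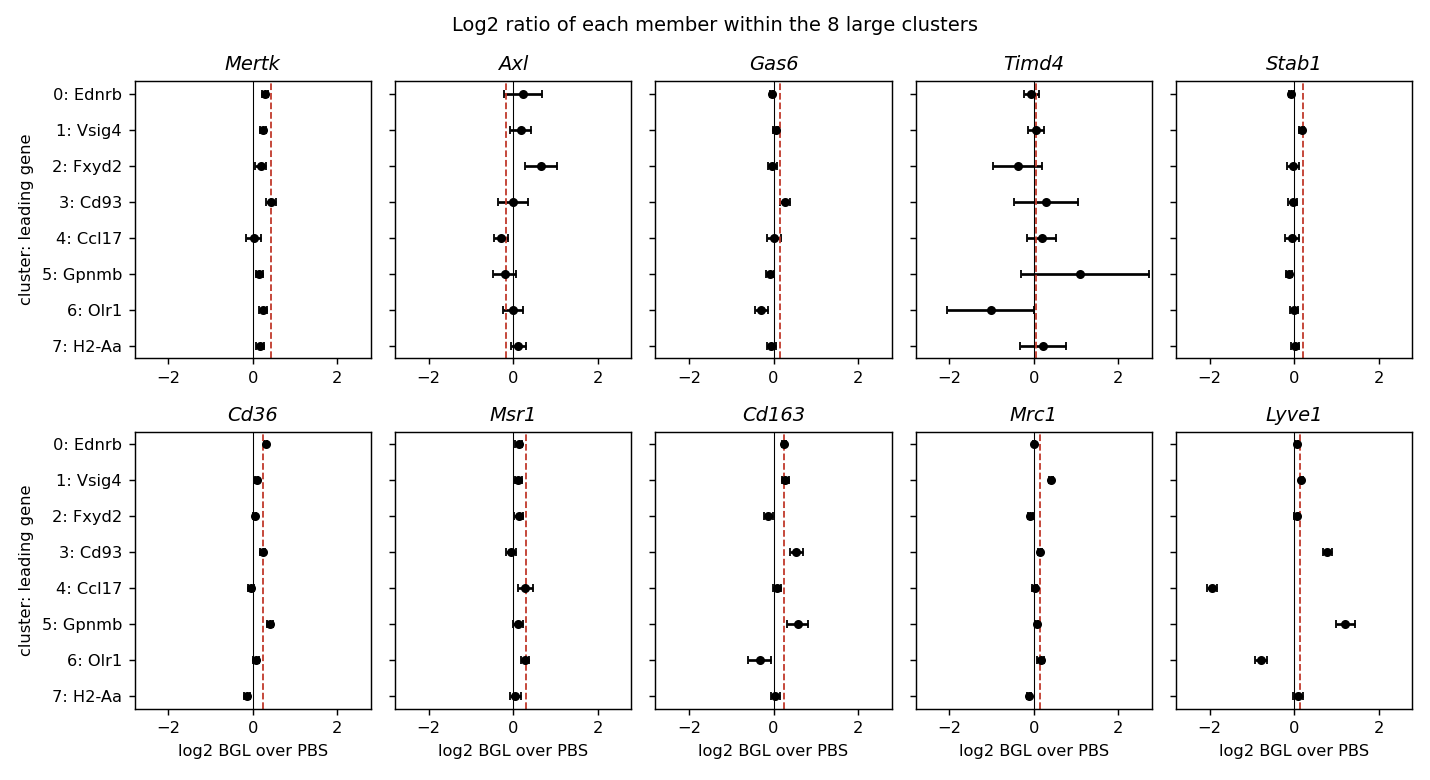
Log2 ratio of CPM, β-glucan (BGL) over PBS, of each gene in the 8 large clusters (rows; 100 or more cells per library, by number and first leading gene), with 95% counting intervals. The red dashed line is the ratio in the whole compartment. Mertk lies right of 0 in all 8 clusters, and Lyve1 spreads from -1.95 in cluster 4 to 1.204 in cluster 5.

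Lyve1 varied most between clusters. It was higher with β-glucan in cluster 3 (405 against 236 CPM, 0.78) and cluster 5 (99.6 against 43.2 CPM, 1.204) and lower in cluster 6 (89.97 against 155 CPM, -0.78) and cluster 4 (86.7 against 336 CPM, -1.95). The T cell-like cluster had Lyve1 at 103 and 121 CPM, and the B cell-like cluster 8 at 13.4 and 28.2 CPM. The part of this background in clusters 5 and 6 was not tested. In clusters 5 and 6 the Lyve1 UMIs came from few cells. In cluster 5, 22 cells with β-glucan and 7 with PBS had at least 10 Lyve1 UMIs, and the cells below 10 had 28.9 and 23.4 CPM. In cluster 6 the numbers were 27 and 17 cells, and the cells below 10 had 21.01 and 28.4 CPM.

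In cluster 4 the difference lay in cells of 1 library. At a finer clustering (resolution 1) 140 PBS cells, all of cluster 4, formed a cluster with no β-glucan cell, led by Rnase2a, Arg1, Slc7a2 and Mmp12; Arg1 encodes arginase-1, a gene of alternative activation. These 140 cells had Lyve1 at 1025 CPM (993 to 1058) and Mrc1 at 899 CPM (869 to 930). Lyve1 had at least 30 UMIs in 36.4% of them and none in another 36.4%. The other cells of cluster 4 had Lyve1 at 86.7 CPM in the 349 cells with β-glucan and 87.7 CPM in the 450 with PBS, and Mrc1 at 609.8 and 495 CPM. Against the 450 other PBS cells, the 140 cells were also higher in Mertk (112 against 35.9 CPM) and Gas6 (113 against 38.3). The same held for Cd36 (580 against 264 CPM) and Msr1 (63.3 against 40.7). Stab1 and Axl were higher by less, and the intervals of Cd163 and Timd4 overlapped. Cd36 in cluster 4 was at 338 CPM with β-glucan against 264 CPM with PBS once the 140 cells were left out. Without the 140 cells the Lyve1 log2 ratio in cluster 4 was -0.02. Since each library pooled 4 mice, the number of mice that gave these cells is not known, and library and pre-treatment cannot be told apart.

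**Figure D5:**
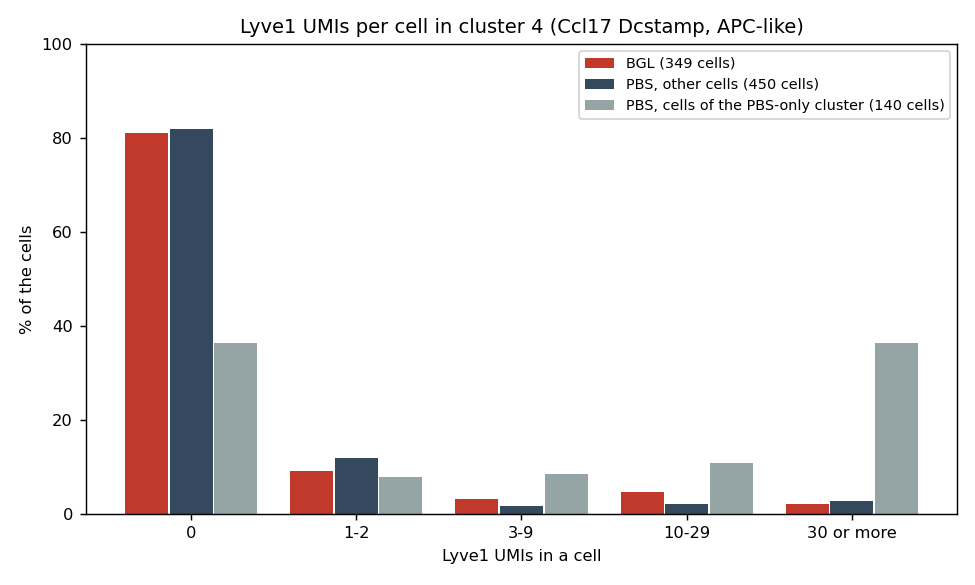
Lyve1 UMIs per cell in cluster 4, as the percentage of the 349 β-glucan cells (BGL, red), the 450 other PBS cells (dark) and the 140 PBS cells of the cluster found in that library alone (grey). In the first 2 sets 81.1% and 82.0% of cells have no UMI; in the third 36.4% have 30 or more.

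The other genes of the pathway were taken from 11 lists of 91 genes, of which 66 reached a mean of 5 CPM in the compartment. Of these, 11 were past 1.2-fold and higher and 4 past it and lower, and their median log2 ratio was 0.05. Beside them, 6.84% of all 9811 genes were past 1.2-fold and higher and 4.47% past it and lower, with a median log2 ratio of 0.03. The counts for the lists were not recomputed under other settings. Among the 11 higher genes, the log2 intervals of Cd300lb (0.21 to 0.32), Hmox1 (0.24 to 0.30) and Scarf1 (0.09 to 0.45) spanned 1.2-fold. Among 8 bridging molecules measured, none was past it and higher and 2 were lower, Lgals3 (galectin-3, a MERTK ligand; 1588 against 2001 CPM, -0.33) and Thbs1 (thrombospondin-1, a CD36 ligand; 8.73 against 17.3 CPM, -0.98). The highest was Pros1, which encodes protein S, another ligand of MERTK (175 against 154 CPM, 0.18). Thbs1 was higher with β-glucan in 3 of the 8 large clusters. Its highest cluster level, 490 CPM, was in the neutrophil-like cluster 9, outside the compartment. Among 7 other apoptotic cell receptors of 15 that passed the minimum, 2 were past it and higher, Itgb5, a chain of an integrin that binds MFG-E8 (201 against 159.6 CPM, 0.33), and Cd300lb (93.4 against 77.8, 0.26), and Havcr2 was lowest at 0.00.

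Of 4 find-me receptors, Cx3cr1, the fractalkine receptor, was higher (213 against 165 CPM, 0.37) and Gpr132, a receptor of lysophospholipids, lower (38.3 against 53.7, -0.49). None of 3 do-not-eat-me genes was past 1.2-fold, from Sirpa (0.11) to Cd47 (-0.08). Of 5 engulfment adaptors, Elmo1, which activates Rac with DOCK proteins, was higher (959 against 774 CPM, 0.31, higher in 8 of 8 clusters), and Rac1 was lowest (-0.08). The study reported Cx3cr1 and Elmo1 as upregulated from these same libraries, so their ratios here are not independent of that report. Of 12 genes of cargo handling and lipid efflux, Rubcn, which encodes rubicon of LC3-associated phagocytosis, was higher (35.3 against 27.4 CPM, 0.36) and Slc2a1, a glucose transporter, lower (19.96 against 31.8, -0.67). The cholesterol exporters Abca1 and Abcg1, named after their values were seen, were at 0.11 and -0.13.

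Of 6 nuclear receptors of engulfment, Pparg was past 1.2-fold and higher (36.2 against 24.9 CPM, 0.54, higher in 8 of 8 clusters), and Nr1h2 was lowest (-0.09). Of 7 other scavenger receptors, 3 were past it and higher: Colec12 (146 against 103 CPM, 0.51), Olr1 (68.9 against 49.4, 0.48) and Scarf1 (9.23 against 7.66, 0.27), while Cd68 was at -0.06. Of 8 genes of haem and iron handling, Hmox1, the haem oxygenase, was higher (281 against 233 CPM, 0.27) but only in 3 of the 8 large clusters, with its highest level in cluster 0, and Slc40a1, the iron exporter, was higher at a low level (6.48 against 4.29 CPM, 0.59). Ftl1 was lowest (-0.07). Of 2 other lectins and hyaluronan receptors, Cd44 was at 933 and 1078 CPM (-0.21). Of 4 sheddases, which cleave proteins from the cell surface, Mmp14 was highest (0.14) and Adam17 lowest (-0.03). These ratios carry the same difference in cluster mix and long genes as those of the 10 genes. The share of all genes higher in 8 of 8 clusters is not given here, so that count does not set Elmo1 or Pparg apart.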

How the data were processed

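Synovial CD45+CD11b+ cells were measured in 2 libraries, 1 per group, made with a droplet kit that reads the 3' end of transcripts. The deposited counts are UMIs of each gene in each barcode, without normalization, which the authors obtained with Cell Ranger 7.0.0 (GRCm39, Ensembl 104). The processing notes of the submitters also name mm10 without a role. Depth was 81611849 UMIs over 7196 barcodes with β-glucan and 73874602 over 5760 with PBS. The 10 genes and the lists were chosen with earlier results of these data known.

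Clusters were rebuilt with Seurat 5.3.0 and sctransform 0.4.2 in R 4.3.3 (3000 variable genes, 30 principal components, 20 neighbours, resolution 0.7) on the merged libraries without integration. A cluster was named from the best of the marker lists where at least 3 markers were found in 25% of its cells and its leading genes did not go against the name; the last condition was set at 3 leading markers of another class after the clusters were seen. Clusters 1 and 2 had 1 such marker among their 10 leading genes and none of their own, so macrophage-like cells were pooled as 1 class only in an alternative. Scrublet (scanpy 1.11.5) marked 0 and 2 cells, too few to have worked, so doublets were kept. UMIs were summed per cluster and library with scipy 1.17.1, numpy 2.4.6 and pandas 2.3.3 (Python 3.11.15), and intervals were exact Poisson, Clopper-Pearson or conditional binomial intervals. Cluster order was read as unresolved where intervals of neighbours overlapped. In simulated sums of 9811 genes for the comparison of β-glucan with PBS in the compartment, 95.4% of intervals held the true log2 ratio. These sums were drawn from the Poisson model that the intervals assume, so this checks the computation only. Spread between cells, mice or libraries was not simulated.

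Named genes were the 10, the highest and lowest log2 ratio of each list of those reaching 20 CPM in a library, the 3 genes of most like pattern (1 of them, for Gas6, is not reported here), and markers that name a cluster. Other list genes past 1.2-fold (Thbs1, Cd300lb, Olr1, Scarf1 and Slc40a1) were named after their values were seen. Spans and coordinates came from a GENCODE annotation of GRCm39, in which 31870 of the 32524 gene IDs were found. On the other strand, Mertk overlaps Gm14011, Gas6 overlaps Tmem255b and Stab1 overlaps Nt5dc2, and no gene of the 10 overlaps another on its own strand. Alternatives were other filters on cells, other sets of cells, weights and scalings (TMM from edgeR 4.0.16), thinning, matching on long genes, other resolutions and other minimums. Leaving out cluster 4 or the cells found in PBS alone, and the same mix of clusters, were added after the data were seen.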

Additional observations from a re-analysis of the deposited data

Results flagged for a closer look

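For 4 genes, 2 large clusters lay past 1.2-fold in opposite directions with intervals that excluded 0. The share of all genes that meet this rule is not given here, so the count does not set these genes apart. With 1 library per group the difference between the clusters was not tested. Lyve1 was higher with β-glucan in cluster 5 (log2 ratio 1.204, 0.98 to 1.43) and lower in cluster 4 (-1.95, -2.07 to -1.84). The second value was -0.02 without the 140 cells of the cluster found in PBS alone. Lyve1 in cluster 5 was at 99.6 and 43.2 CPM. In the T cell-like cluster it was at 103 and 121 CPM and in cluster 8 at 13.4 and 28.2 CPM. Axl was higher in cluster 2 (0.66, 0.29 to 1.04) and lower in cluster 4 (-0.29, -0.44 to -0.13). In thinned cells the first Axl value was 0.26, and without the same 140 cells the second was -0.21. Axl in cluster 2 was at 17.6 and 11.1 CPM (β-glucan and PBS). It was at 17.03 and 3.94 CPM in cluster 8 and at 10.2 and 25.2 CPM in the T cell-like cluster. Gas6 was higher in cluster 3 (0.27, 0.15 to 0.39) and lower in cluster 6 (-0.29, -0.44 to -0.14). Cd163 was higher in cluster 5 (0.57, 0.33 to 0.81) and lower in cluster 6 (-0.33, -0.60 to -0.06). The Cd163 values rested on 16 and 6 cells of cluster 5 and 9 and 8 cells of cluster 6 with at least 10 UMIs (β-glucan and PBS), and in thinned cells they were 0.22 and -1.15. The pooled mice behind such cells are not known.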

How the results depend on the processing

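With 1 library per group no replicate could be left out and no paired analysis was possible because each group has a single library. The count of genes past 1.2-fold and higher, 2 as reported, was 1 in macrophage-like clusters alone, with equal weight per cell, without cluster 4 and without the cells found in PBS alone, and 0 with equal weight per cluster, in cells matched on long-gene UMIs, with the same mix of clusters in both libraries and at 1.5-fold. It was 3 under the stricter filter on cells (1000 genes, 5% mitochondrial UMIs; Cd36 added) and without the cells of highest Scrublet score (Cd163 added), and 2 under the others. The count of genes past it and lower was 0 under each. Of all genes tested, between 3.10% (matched cells) and 9.76% (minimum of 1 CPM) were past 1.2-fold and higher under the alternatives. Between 2.83% (without cluster 4) and 7.75% (minimum of 1 CPM) were past it and lower. At 1.5-fold these shares were 0.38% and 0.98%. Of 170 ratios recomputed, 100 stayed within the counting interval and 70 lay outside it. Mertk was above 0 under all 17 alternatives, from 0.10 (matched cells) to 0.44 (all cells of the sort). So were Msr1 (0.07 to 0.32), Cd36 (0.10 to 0.28), Cd163 (0.10 to 0.27) and Lyve1 (0.00073 to 0.20). In matched cells Lyve1 was thus level between the libraries. Mrc1 was above 0 under 16, Stab1 under 14, Timd4 under 13, Gas6 under 12 and Axl under 3. These 3 were macrophage-like clusters alone (0.17), without cluster 4 (0.13) and matched cells (0.09). TMM scaling left 9 of 10 genes above 0. Of 40 highest cluster levels recomputed, 21 lay outside the counting interval; at resolution 0.5 the highest compartment level was in the Ednrb cluster for Mertk, in one led by Clec4b1 and Retnla for Axl and in one led by Spp1 and Gpnmb for Msr1, and at resolution 1 in one led by Ildr2 and Adamts14 for Cd36 and Lyve1 and in one led by Taco1 and Plxna4 for Mertk. The median ratio of all genes lay between 0.00 and 0.03 under these alternatives. Depth limits Timd4 and Axl most.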
